A study of Mus musculus with 14 samples.

Results

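The immediate early and Klf transcription factor genes Fos, Jun, Junb, Egr1, Myc, Klf2, Klf4, Klf6, Atf3 and Ier2 were followed through RNA-seq and through the m6A, Igf2bp3 and Lin28a pull-downs (RIP) of muscle stem cells (MuSCs). They were picked by name, with earlier results of these data known. Each was matched by its symbol to the Ensembl identifiers of the RNA table and to the Entrez identifiers of the RIP tables. All 10 were found, among 16545 genes with a value in any table. All 10 had RNA values, 9 had m6A-RIP rows (all but Atf3), 6 had Igf2bp3-RIP peaks (Jun, Egr1, Myc, Klf2, Klf4 and Klf6) and 1, Jun, had Lin28a-RIP peaks.

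Immediate early genes are transcribed within minutes of a growth factor or stress signal, without new protein synthesis, through factors such as Srf and Creb1 that wait at their promoters. Their mRNAs are short-lived, and their products pass the signal on to later genes. Fos, Jun, Junb and Atf3 are bZIP proteins that pair to form AP-1 and related dimers, Egr1 and the Klf proteins are zinc finger factors that bind GC-rich DNA, Myc drives ribosome production and growth, and Ier2 is a small nuclear protein of the same early response. In MuSCs these genes are known for their induction when the cells leave quiescence and when muscle is dissociated.

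Control MuSCs were compared with Lin28a+ MuSCs, which express the RNA-binding protein Lin28a and were sorted by flow cytometry from the skeletal muscle of Lin28a-CreERT2; LSL-tdTomato mice, a line in which Lin28a regulatory sequence drives an inducible Cre that switches on a red reporter. The labels give the genotypes as control and Lin28a positive and name no treatment other than the pull-down. The mice's age, the number of animals behind a library and the sort of the control cells are not given in the sources used here, and the labels describe MuSCs as kept in medium with serum. Both groups had 2 input libraries (the RNA-seq), 2 m6A-RIP libraries, in which RNA carrying N6-methyladenosine is pulled down with an antibody, and 2 Igf2bp3-RIP libraries, in which RNA bound to the m6A reader Igf2bp3 is pulled down. Lin28a-RIP had 2 libraries of Lin28a+ MuSCs and none of control MuSCs.

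Estimated counts summed to 4842915 to 6220960 per input library, and counts over listed peaks to 21350962 to 31830638 per m6A-RIP library, 9215355 to 34142094 per Igf2bp3-RIP library and 33908110 to 36610494 per Lin28a-RIP library. In the input table, both Lin28a+ columns are headed with m6A-RIP names. Over 7950 genes, their log2(CPM + 1) correlated with the control input at r = 0.95 and with the Lin28a+ m6A-RIP at r = 0.52, so they were treated as input, without replicate numbers (A and B). The methods state a minimum number of biological replicates per experiment that is above the 2 libraries per group here, and neither they nor the labels tie a library to an animal or culture, so p-values measure only the spread between these libraries. The A and B input libraries were closer to each other than the control input libraries (chi-square per degree of freedom 1.04 against 5.10 over all genes compared, and 2.20 against 62.9 over the genes whose values are whole numbers). Counting error alone would give about 1, so over all genes compared the A and B libraries showed little spread beyond it. The myogenic regulator Myod1 lay between 4650 and 4728 CPM in all 4 input libraries, and Pax7, which marks MuSCs, between 143 and 193 CPM. Of the myogenic markers, which summed to 14760 to 15860 CPM, 3 of 10 were higher in Lin28a+ MuSCs and 5 lower, with log2 fold changes of 0.36 for Pax7 and 1.86 for the differentiation factor Myog and of -2.21 for Megf10, -1.93 for Vcam1, -1.21 for Myf5 and -0.92 for Chrna1. Endothelial markers summed to 0.39 to 0.51 CPM, with 5 of 6 not listed in the table, and macrophage markers to 1.6 to 3.26 CPM, with Adgre1 not listed. Markers of fibro-adipogenic progenitors summed to 125 to 127 CPM in control MuSCs and 131 to 132 CPM in Lin28a+ MuSCs, with Dcn, Dpt and Lum not listed, while Ly6a of this list rose from 3.93 and 4.59 to 13.5 and 12.5 CPM. Those of pericytes or smooth muscle summed to 5549 to 5591 and 7618 to 7635 CPM, nearly all of it Acta2, while Rgs5 fell from 2.44 and 2.09 CPM in control MuSCs to 0.20 CPM in both Lin28a+ libraries and Cspg4 and Kcnj8 were not listed. The part of other cell types in the results below was not tested.

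RNA of 5 of the 10 genes was lower in Lin28a+ than in control MuSCs and that of 2 was higher. Egr1, Klf2, Fos, Klf4 and Klf6 fell, Jun and Atf3 rose, and Myc, Ier2 and Junb did not pass the test. The test was edgeR's quasi-likelihood test across all 11317 genes, with a call at a Benjamini-Hochberg adjusted p under 0.05. In these libraries 56.8% of all genes tested were called, 28.7% as lower and 28.1% as higher, so that the 7 of 10 calls, 5 lower and 2 higher, stand on a high background. The falls were large: 4 of the 10 genes were called and more than 2-fold lower, against 8.73% of all genes. Of these 4, Fos was not called by DESeq2. Without Lin28a+ input library A, Klf4 was at -0.87 on the log2 scale, less than 2-fold lower. The median log2 fold change of the 10 was -0.69, against 0.01 for all genes tested. Since the 10 were chosen with earlier results of these data known, these contrasts with all genes are descriptive only. In bulk libraries, fewer cells with a transcript and less of it per cell cannot be told apart.

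**Figure D1:**
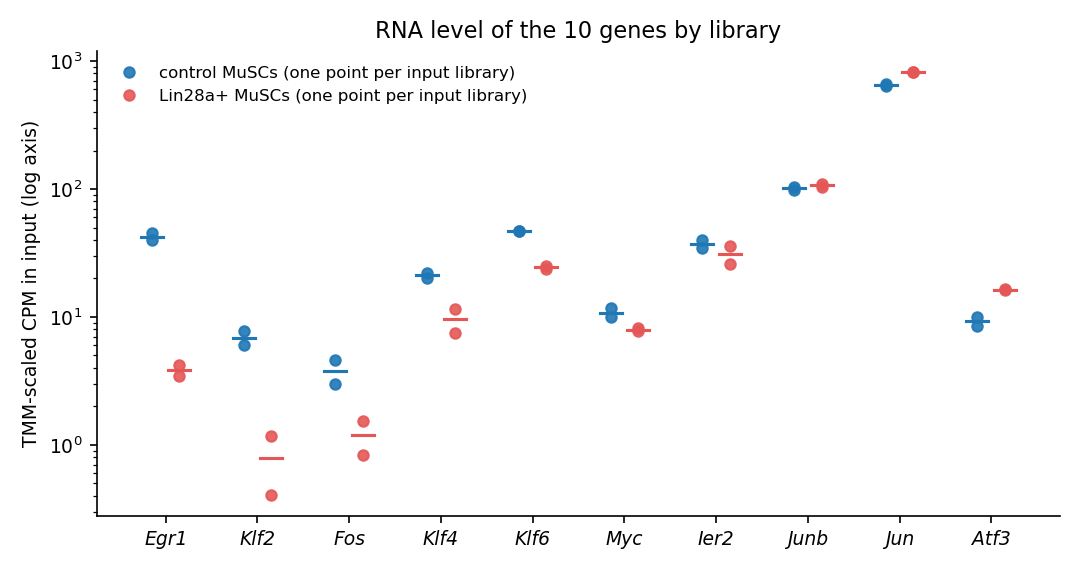
RNA level of each gene as CPM scaled by the trimmed mean of M values (TMM), on a log axis, with a point for each input library and a line at the mean of the 2 libraries of a group. Egr1, Klf2, Fos, Klf4 and Klf6 of Lin28a+ MuSCs (red) lie below control MuSCs (blue) with no overlap, while Jun and Atf3 lie above.

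Among the AP-1 genes, Fos moved against Jun and Atf3. Fos, the founding AP-1 partner of Jun, had 4.59 and 2.98 CPM in control MuSCs and 0.84 and 1.53 CPM in the Lin28a+ libraries. Its groups did not overlap, but its counts were low, with 44 estimated counts in control and 12 in Lin28a+ libraries after rounding. The ratio of these sums was 3.11-fold lower, with an exact 95% interval of 1.61 to 6.46 that covers counting error only. The fitted log2 fold change was -1.64 ± 0.39 (SE, adjusted p = 0.0147), and the call was lost with DESeq2 (adjusted p = 0.145), without control input library 1 (-1.33, adjusted p = 0.0579) and without Lin28a+ input library A (-1.21, adjusted p = 0.0833).

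Jun, the bZIP factor that can also pair with itself, had 642 and 660 CPM in control MuSCs and 824 and 822 CPM in the Lin28a+ libraries. Both Lin28a+ libraries lay above both control libraries, a log2 fold change of 0.34 ± 0.02 (adjusted p = 0.00014). Atf3, a stress-induced bZIP factor, had 8.43 and 10.0 CPM in control MuSCs and 16.3 and 16.4 CPM in the Lin28a+ libraries. It was 1.76-fold higher, with a log2 fold change of 0.82 ± 0.10 (adjusted p = 0.000821), and DESeq2 did not call it (adjusted p = 0.0819). Junb, a Jun relative that activates less strongly, had 98.5 and 104 CPM in control MuSCs and 110 and 103 CPM in the Lin28a+ libraries. Its groups overlapped (log2 fold change 0.07 ± 0.05, adjusted p = 0.326).

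Egr1, a zinc finger factor induced by Erk signalling, had the largest fitted fall of the 10 with all libraries in, while without Lin28a+ input library A it was -3.60 on the log2 scale against -4.01 for Klf2. It had 45.1 and 39.9 CPM in control MuSCs and 4.23 and 3.48 CPM in the Lin28a+ libraries, and every Lin28a+ library lay below every control library. The log2 fold change was -3.43 ± 0.13 (10.8-fold lower, adjusted p = 2.26e-05), the 74th lowest of the 11317 genes tested. The summed counts of 489 and 39 gave a 10.6-fold lower level with an exact 95% interval of 7.66 to 15.1 for counting error.

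All 3 Klf genes fell. Klf2, which keeps quiescence programs in several cell types, had 5.99 and 7.73 CPM in control MuSCs and 1.18 and 0.41 CPM in the Lin28a+ libraries. The Lin28a+ libraries held 6 and 2 estimated counts, and the sums of 80 and 8 gave an 8.47-fold lower level with an exact 95% interval of 4.10 to 20.3. The fitted log2 fold change of Klf2 was -3.07 ± 0.35 (adjusted p = 0.000769), the 111th lowest of all genes, and it was -4.01 without Lin28a+ input library A and -2.53 without library B, called in both cases. Klf4, one of the reprogramming factors and a brake on proliferation in many tissues, had 20.2 and 22.2 CPM in control MuSCs and 7.54 and 11.6 CPM in the Lin28a+ libraries. The groups of Klf4 did not overlap, and the log2 fold change was -1.16 ± 0.17 (2.23-fold lower, adjusted p = 0.00227). Klf6, a broadly expressed family member, had 47.3 and 46.8 CPM in control MuSCs and 23.8 and 25.1 CPM in the Lin28a+ libraries. Its replicates were close to each other, and the log2 fold change was -0.94 ± 0.05 (1.93-fold lower, adjusted p = 6.15e-05).

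Myc and Ier2 were lower on average without passing the test. Myc had 11.7 and 9.91 CPM in control MuSCs and 7.72 and 8.20 CPM in the Lin28a+ libraries, with no overlap, and a log2 fold change of -0.44 ± 0.11 (adjusted p = 0.0568). When at least 10 counts were asked of every library, fewer genes were tested and Myc was called (-0.46, adjusted p = 0.0436). Ier2 had 34.5 and 39.6 CPM in control MuSCs and 26.1 and 36.0 CPM in the Lin28a+ libraries. These ranges overlapped, with a log2 fold change of -0.27 ± 0.15 (adjusted p = 0.194), and Ier2 was called when Lin28a+ library B was left out (-0.51, adjusted p = 0.0193).

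Promoters of 7 of the 10 genes were in the table of RefSeq promoter windows used here (GRCm38.p6), which had no entry for Egr1, Myc or Ier2. The 250 bases before the start site are shown for the 4 lower genes in that table and for the 2 higher genes, since these are the members that moved together in RNA. The windows are chr12:85473640-85473889 (plus strand) for Fos, chr8:72318812-72319061 (plus strand) for Klf2, chr4:55532476-55532725 (minus strand) for Klf4, chr13:5861239-5861488 (plus strand) for Klf6, chr4:95052223-95052472 (minus strand) for Jun and chr1:191183334-191183583 (minus strand) for Atf3. Each is written 5′ to 3′ on the strand of its gene, in lower case, and capitals mark matches, on either strand, to the TATA box letters TATAAA, to the letters CCAAT of the CAAT box, to the GC box core GGGCGG and to TGACG, the core shared by cAMP response elements. Neighbouring GGGCGG matches can overlap, as they do in Klf4 and Atf3.
Fos: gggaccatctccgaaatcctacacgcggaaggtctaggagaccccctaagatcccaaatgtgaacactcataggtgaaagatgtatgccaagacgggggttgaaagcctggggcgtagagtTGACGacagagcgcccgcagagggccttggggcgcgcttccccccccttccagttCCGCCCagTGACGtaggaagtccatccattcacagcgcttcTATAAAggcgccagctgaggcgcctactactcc
Klf2: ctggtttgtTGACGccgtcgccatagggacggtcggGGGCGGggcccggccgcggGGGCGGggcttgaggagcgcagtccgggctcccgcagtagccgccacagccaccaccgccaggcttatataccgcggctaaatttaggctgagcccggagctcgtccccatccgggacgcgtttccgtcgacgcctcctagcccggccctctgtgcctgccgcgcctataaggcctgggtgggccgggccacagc
Klf4: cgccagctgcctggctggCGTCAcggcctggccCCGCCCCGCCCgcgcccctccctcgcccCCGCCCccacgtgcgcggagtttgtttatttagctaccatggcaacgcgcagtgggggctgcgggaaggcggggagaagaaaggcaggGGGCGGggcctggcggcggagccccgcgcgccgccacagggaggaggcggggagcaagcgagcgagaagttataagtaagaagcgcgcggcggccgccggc
Klf6: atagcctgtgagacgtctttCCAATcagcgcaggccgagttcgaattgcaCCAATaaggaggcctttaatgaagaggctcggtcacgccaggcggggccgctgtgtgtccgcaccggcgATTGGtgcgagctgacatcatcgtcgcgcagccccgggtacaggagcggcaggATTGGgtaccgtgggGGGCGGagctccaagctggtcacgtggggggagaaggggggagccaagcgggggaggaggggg
Jun: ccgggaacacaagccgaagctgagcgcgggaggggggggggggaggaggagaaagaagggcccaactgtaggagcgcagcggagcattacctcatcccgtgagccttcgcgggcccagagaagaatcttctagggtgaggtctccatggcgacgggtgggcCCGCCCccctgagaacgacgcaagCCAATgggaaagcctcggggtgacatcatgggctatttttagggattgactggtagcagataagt
Atf3: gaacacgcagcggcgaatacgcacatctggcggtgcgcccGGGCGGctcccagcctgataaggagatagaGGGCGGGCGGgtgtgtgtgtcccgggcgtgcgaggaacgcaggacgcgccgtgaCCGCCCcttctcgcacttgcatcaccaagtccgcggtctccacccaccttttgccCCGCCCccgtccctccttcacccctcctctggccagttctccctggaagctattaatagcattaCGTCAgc
GGGCGG was found in 6 of the 7 windows, Junb being the exception, and in 32.7% of all 32851 RefSeq windows of the same length. TGACG was found in 5 of 7 (Fos, Junb, Klf2, Klf4 and Atf3), against 17.8% of all windows, and CCAAT in 3 of 7 (Jun, Junb and Klf6), against 33.8%. TATAAA was found in Fos alone, at positions -33 to -28 from its start site, and in 12.4% of all windows. The AP-1 site TGACTCA was in none of the 7 windows and 4.46% of all, and the CArG box, the Srf site, in none of the 7 and 1.47% of all. These are matches of letters in a short window, and the lower and the higher genes did not separate by any of them.

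Related genes were taken from 7 hand-written lists, whose counts stand beside the 28.7% of all genes called lower and the 28.1% called higher. Of 32 other immediate early genes tested, 18 were lower in Lin28a+ MuSCs and 4 higher, with a median log2 fold change of -0.36. Dusp4, a phosphatase that switches off Erk, fell 3.58-fold from 404 and 411 to 112 and 116 CPM, and Errfi1, an inhibitor of the Egf receptor, fell 3.52-fold. Ier5 rose 2.21-fold and Id3, a helix-loop-helix inhibitor, 1.22-fold. Of 13 other Klf and Sp factors tested, 7 were lower and 1 higher (median -0.36). Klf5 was 3.98-fold and Klf9 2.25-fold lower, and Klf16 was 1.60-fold higher. Of 17 further bZIP factors, 8 were lower and 4 higher (median -0.30), with Maff 4.20-fold and Atf6 1.73-fold lower and Atf5 1.59-fold and Jdp2, an AP-1 repressor, 1.72-fold higher.

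Upstream of these genes, 9 of 21 serum response and kinase genes were lower and 6 higher (median -0.31), against 3 and 1 with DESeq2. Srf itself was 1.28-fold higher, while the Erk kinase gene Map2k1 was 1.72-fold and Rps6ka3 2.08-fold lower. Of 17 genes that bind AU-rich elements or degrade mRNA, 6 were lower and 3 higher (median -0.25), against 2 and 2 with DESeq2. Zfp36l2, which speeds the decay of such mRNAs, was 2.45-fold and the deadenylase gene Cnot6l 1.83-fold lower, whereas Hnrnpd was 1.38-fold and Ybx1 1.18-fold higher. Around Myc, 4 of 11 network partners were higher and 3 lower (median 0.11), with Mycl 2.68-fold and Mxd3 3.61-fold higher and Mxd4 3.04-fold and Mga 2.02-fold lower. Of 15 genes taught as Myc targets, 10 were higher and 2 lower (median 0.35), with Cdk4 1.52-fold and Bop1 1.45-fold higher and Ncl 1.72-fold and Npm1 1.41-fold lower. No list median changed sign under any scaling tried, and DESeq2 called fewer genes in each list and among all genes. It called 1560 of all 11317 genes lower and 1479 higher, the background for its list counts here and above. Of the other immediate early genes, 13 were then lower and 2 higher, with 4 and 1 of the Klf and Sp factors. The bZIP factors had 4 lower and 2 higher, the Myc partners 1 and 2 and the Myc targets 2 and 6.

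**Figure D2:**
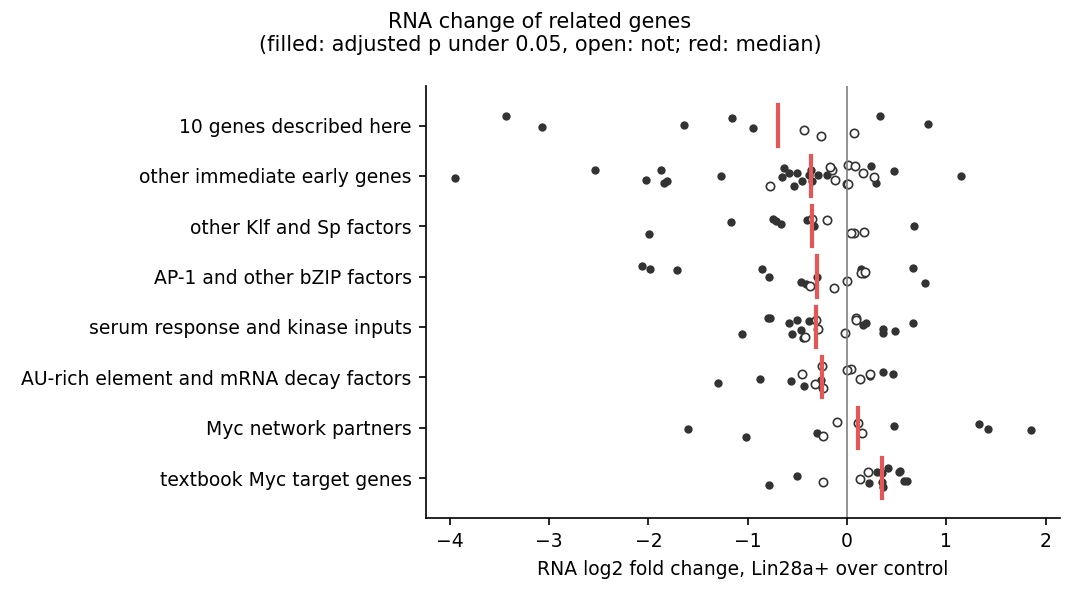
RNA log2 fold change (Lin28a+ over control) of the 10 genes and of each gene tested in the 7 related lists, with a filled point where the adjusted p was under 0.05, an open point where it was not, and a red bar at the median. Medians are below 0 for 5 of the lists and above 0 for Myc network partners (0.11) and textbook Myc targets (0.35).

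The fitted m6A-RIP change had the sign of the RNA change for 6 of the 9 genes. Klf2, Fos and Ier2 had opposite signs (Ier2 not when scaled by total counts), and of these the m6A-RIP change passed the test for Klf2 alone. A count in m6A-RIP rises both with the amount of RNA and with its methylation. Summed per gene, 4 of the 9 genes were lower and 3 higher, where 33.7% and 32.5% of all 9413 genes were called in these directions. Egr1 had 74.0 and 74.2 CPM in control MuSCs and 8.22 and 9.07 CPM in the Lin28a+ libraries. This is a log2 fold change of -3.09 ± 0.08 (8.54-fold lower, adjusted p = 1.41e-11). Klf4 had 80.9 and 77.6 CPM in control MuSCs and 30.8 and 35.0 CPM in the Lin28a+ libraries (-1.27 ± 0.07, adjusted p = 1.46e-08). Klf6 had 32.8 and 31.8 CPM against 17.2 and 15.3 CPM (-0.99 ± 0.10, adjusted p = 1.60e-06). For these 3 genes the Lin28a+ libraries lay far below the control libraries, as they did in RNA.

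Myc had 89.4 and 92.7 CPM in control MuSCs and 73.8 and 68.9 CPM in the Lin28a+ libraries, a log2 fold change of -0.35 ± 0.05 (adjusted p = 8.31e-05). Jun rose from 1039 and 1006 to 1244 and 1239 CPM (0.28 ± 0.04, adjusted p = 1.95e-05). Junb rose from 269 and 269 to 303 and 318 CPM (0.21 ± 0.04, adjusted p = 0.000716). Ier2 overlapped between groups, with 51.7 and 45.3 CPM in control MuSCs and 50.8 and 51.2 CPM in the Lin28a+ libraries (0.07 ± 0.07, adjusted p = 0.43). Scaled by total counts instead, the median of all genes moved from 0.01 to -0.09 and the change of Ier2 to -0.03.

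Fos and Klf2, whose RNA was called lower, had higher mean levels in the m6A-RIP of Lin28a+ MuSCs. Fos had 9.86 and 11.8 CPM of m6A-RIP in control MuSCs and 13.1 and 12.8 CPM in Lin28a+ MuSCs, a log2 fold change of 0.26 ± 0.14 that did not pass the test (adjusted p = 0.128). Klf2 had 27.6 and 32.5 CPM in control MuSCs and 36.6 and 41.0 CPM in the Lin28a+ libraries, with no overlap, and rose by 0.38 ± 0.09 on the log2 scale (adjusted p = 0.00306).

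**Figure D3:**
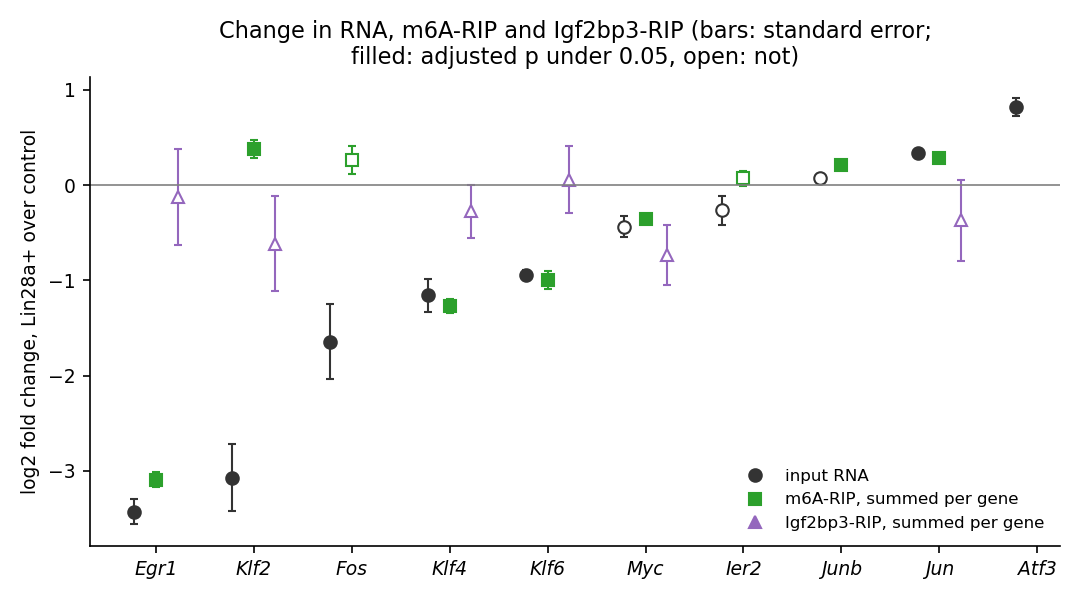
Log2 fold change (Lin28a+ over control) with its standard error in input RNA (circles), m6A-RIP (squares) and Igf2bp3-RIP (triangles), filled where the adjusted p was under 0.05 and open where it was not. RNA and m6A-RIP lie together for Egr1, Klf4, Klf6, Myc and Jun and apart for Klf2 (-3.07 and 0.38) and Fos (-1.64 and 0.26), and all Igf2bp3-RIP points are open.

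Relative to input, the change of m6A-RIP beyond that of RNA was called for Klf2 and Fos, 2 of 9 genes, both higher, where 3.06% of 7950 genes were called higher. For Klf2 it was 3.47 ± 0.45 on the log2 scale (adjusted p = 0.000814), the 48th highest of all genes, and between 2.91 and 4.43 with each library left out. The level of Klf2 in m6A-RIP over input, as log2((RIP CPM + 1)/(input CPM + 1)), was 1.92 and 2.15 in the control libraries and 4.34 and 4.49 in the Lin28a+ libraries. For Fos the change was 1.91 ± 0.44 (adjusted p = 0.0232), and its level over input was 1.25 and 1.49 in control and 2.64 and 2.60 in Lin28a+ MuSCs. The call for Fos was lost without control input library 1 (adjusted p = 0.151), Lin28a+ input library A (0.195) or Lin28a+ m6A-RIP library A (0.0536). Both calls rest on the lowest RNA counts of the 10 genes, and neither gene had at least 10 counts in every library. The other 7 genes lay between -0.12 and 0.33, with Egr1 at 0.33 ± 0.20 (adjusted p = 0.598).

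Myc had the highest m6A-RIP level over input of the 9 genes in control MuSCs, at 3.03 on the log2 scale, above 91.4% of genes, and stayed at 2.95 in Lin28a+ MuSCs. Klf6 had the lowest in both groups, at -0.47 and -0.62, above 25.4% and 24.9% of genes. These are levels within an assay and were not tested.

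The rows of the m6A-RIP table, each a peak of a transcript with no position given, showed where a gene's sum hid unequal parts. Of the 20 rows of the 9 genes, 14 were called, 9 lower and 5 higher, where 61.8% of all 18881 rows were called. Rows of a gene share its transcripts and are not replicates. The 2 rows of Klf2 belong to the same transcript, ENSMUST00000067912.7, and moved in opposite directions. The larger held 756 and 612 counts in control and 800 and 1172 in Lin28a+ MuSCs and rose by 0.61 ± 0.10 on the log2 scale (adjusted p = 8.92e-05). The smaller held 152 and 106 counts in control and 42 and 59 in Lin28a+ MuSCs, with a log2 fold change of -1.25 ± 0.24 (adjusted p = 0.000497). Only the smaller row moved in the direction of the Klf2 RNA.

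Klf4 had 4 rows, and all 4 were lower, by log2 fold changes of -1.09 to -1.27. Jun had 4 rows, of which the 2 large ones rose (0.30 ± 0.04 and 0.39 ± 0.05, with adjusted p of 3.93e-05 and 4.50e-06) and the 2 small ones, with 52 to 146 counts, did not pass, except that 1 of them was called without control m6A-RIP library 1 (0.86, adjusted p = 0.0307). Both rows of Junb rose (0.24 ± 0.06 and 0.28 ± 0.05), 1 of them not past the test when scaled by total counts (0.09, adjusted p = 0.203). Of the 4 rows of Myc, 2 were lower, and of these the row with -0.39 ± 0.15 was not called by DESeq2 (adjusted p = 0.0726) or with 3 of the 4 libraries left out in turn. The only rows of Egr1 (-3.04 ± 0.08) and Klf6 (-0.94 ± 0.10) were lower, and those of Fos (0.32 ± 0.14, adjusted p = 0.0557) and Ier2 (0.12 ± 0.07, adjusted p = 0.155) did not pass. The Fos row was called without control m6A-RIP library 2 (0.44, adjusted p = 0.0291), and the Ier2 row without control library 1 (0.23, adjusted p = 0.0124), while without control library 2 it was 0.03.

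**Figure D4:**
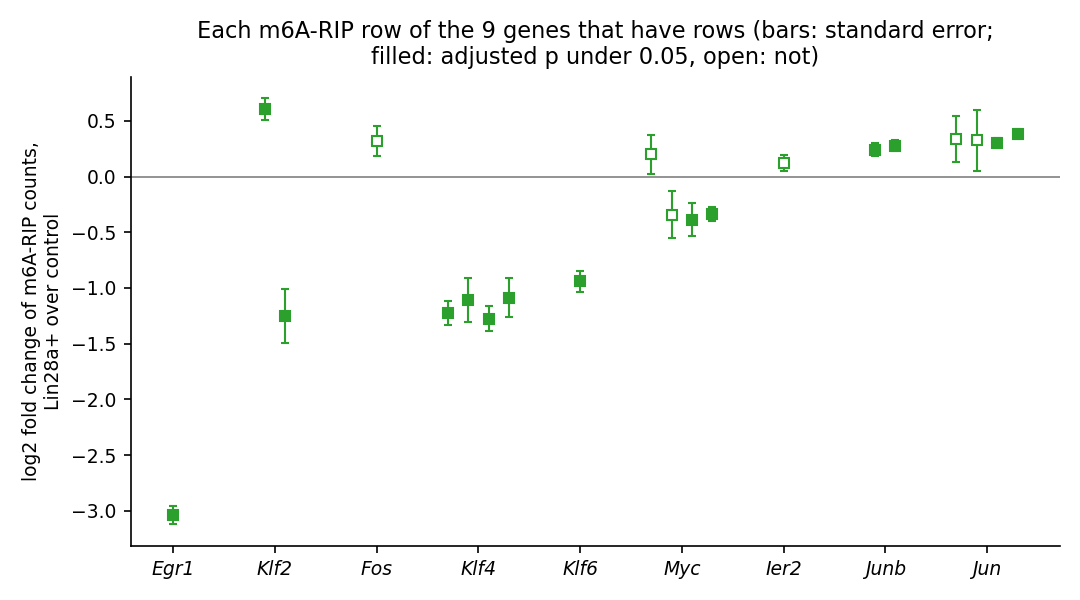
Log2 fold change (Lin28a+ over control) with its standard error for each m6A-RIP row of the 9 genes, filled where the adjusted p was under 0.05 and open where it was not. The 2 rows of Klf2 lie on opposite sides of 0 (0.61 and -1.25), and the 4 rows of Klf4 lie together below 0.

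Igf2bp3-RIP counts of the 6 genes with peaks did not pass the test in either direction. None of the 6 was called per gene, where 0.287% of 4524 genes were called, and none of their 11 peaks was called, where 0.123% of 19465 peaks were called. With edgeR and no replicate block, none of the 6 genes or 11 peaks had an unadjusted p under 0.05. With DESeq2 1 of the genes and none of the peaks had one, and none was called. With the replicate number as a block in edgeR, the peak of Myc was called (-0.69, adjusted p = 0.0114). The spread was wide: the common biological coefficient of variation was 25.4% per gene, against 2.48% in RNA, and replicate 1 of each group had 9215355 and 12617254 counts against 27592959 and 34142094 in replicate 2.

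Egr1 had 78.0 and 45.4 CPM of Igf2bp3-RIP in control MuSCs and 82.5 and 30.6 CPM in Lin28a+ MuSCs. These ranges overlapped, with a log2 fold change of -0.13 ± 0.50 (adjusted p = 0.974), whereas its RNA and m6A-RIP fell more than 8-fold. Klf6 had 88.7 and 47.9 CPM in control MuSCs and 59.3 and 82.2 CPM in the Lin28a+ libraries (0.06 ± 0.35), Klf4 had 30.2 and 44.8 CPM against 33.2 and 29.0 CPM (-0.28 ± 0.28), and Jun had 571 and 329 CPM against 469 and 226 CPM (-0.37 ± 0.42). Myc had 35.9 and 22.6 CPM in control MuSCs and 18.9 and 16.2 CPM in the Lin28a+ libraries, with no overlap (-0.73 ± 0.31, adjusted p = 0.609).

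Relative to input, none of the 6 genes was called, where 1.04% of 3927 genes were called. Egr1 had the largest change, 3.09 ± 0.75 on the log2 scale (adjusted p = 0.0831), the 20th highest of all genes. It was called by DESeq2 (3.08, adjusted p = 0.000266), without Lin28a+ Igf2bp3-RIP replicate 1 (2.23, adjusted p = 0.044) and without replicate 2 (3.67, adjusted p = 0.0425), and not in the other settings. Its Igf2bp3-RIP level over input, on the log2 scale, was 0.92 and 0.04 in control and 4.17 and 2.65 in Lin28a+ MuSCs. Klf2 changed by 2.25 ± 0.93 (adjusted p = 0.201), with an unadjusted p under 0.05 as for Egr1. The only peak counted for Klf2 lies outside its span, as described below, so this may not be a change at its mRNA. Klf6 and Klf4 changed by 0.78 ± 0.43 and 0.64 ± 0.37, and Myc and Jun by -0.52 ± 0.36 and -0.94 ± 0.53. The Igf2bp3-RIP level of Jun over input was low in both groups, at -0.59 in control and -1.33 in Lin28a+ MuSCs, above 17.1% and 8.91% of the genes, whose medians were 1.44 and 1.72.

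Of the 11 Igf2bp3-RIP peaks, 10 lay within the RefSeq span of their gene (GRCm38.p6). The exception was the only peak of Klf2, at chr8:72341068-72341267, which lies 19414 bases past the end of Klf2 (chr8:72319062-72321654) and within the RefSeq gene Eps15l1. Its 177 and 267 counts in control and 175 and 191 in Lin28a+ MuSCs stand under Klf2 in the deposited table, so the Igf2bp3-RIP values of Klf2 may not be those of its mRNA. Eps15l1 had 32.8 and 31.4 CPM of RNA in control MuSCs and 30.5 and 32.4 CPM in the Lin28a+ libraries (log2 fold change -0.03 ± 0.06, adjusted p = 0.861). The m6A-RIP table holds no positions, so the place of the 2 Klf2 rows could not be checked in the same way.

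Jun was the only one of the 10 genes with Lin28a-RIP peaks, which 25.4% of 11306 gene symbols tested in RNA had. For m6A-RIP rows and Igf2bp3-RIP peaks these shares were 65.6% and 32.9%, against 9 and 6 of the 10 genes, or 5 without Klf2, whose only Igf2bp3-RIP peak lies outside its span. The tables list only regions with a peak, so a gene without one is not shown to be unbound. Jun had 15471 and 13400 Lin28a-RIP counts (423 and 395 CPM), the 533rd highest of 3491 genes. Over input, the level of Jun was -0.97 and -1.07 on the log2 scale, above 14.6% of the 3016 genes in both tables, whose median was 1.71. RIP counts cover listed peaks only and input counts the whole gene, here and in the other levels over input. Ranks by these levels are therefore not ranks of binding per RNA.

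Along Jun (chr4:95049036-95052222, minus strand), Lin28a-RIP peaks lay 11 to 335, 728 to 1228 and 1409 to 2150 bases from the start site. The first, at chr4:95051887-95052211, held 2402 and 2092 counts. The second, at chr4:95050994-95051494, held 5735 and 5151 counts, and the third, at chr4:95050072-95050813, held 7334 and 6157 counts. Per kb of peak the mean CPM was 196, 308 and 257, where the median of all 21616 Lin28a-RIP peaks was 63.2. The 2 Igf2bp3-RIP peaks of Jun, chr4:95050990-95051363 and chr4:95050058-95050526, had 488 and 470 CPM per kb over the 4 libraries, against a median of 73.1, and ranked 374th and 408th of 19465 peaks. They overlapped the second and the third Lin28a-RIP peak by 370 and 455 bases, which is 98.9% and 97.0% of the Igf2bp3-RIP peaks and 73.9% and 61.3% of the Lin28a-RIP peaks. The Lin28a-RIP peak next to the start site overlapped none.

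**Figure D5:**
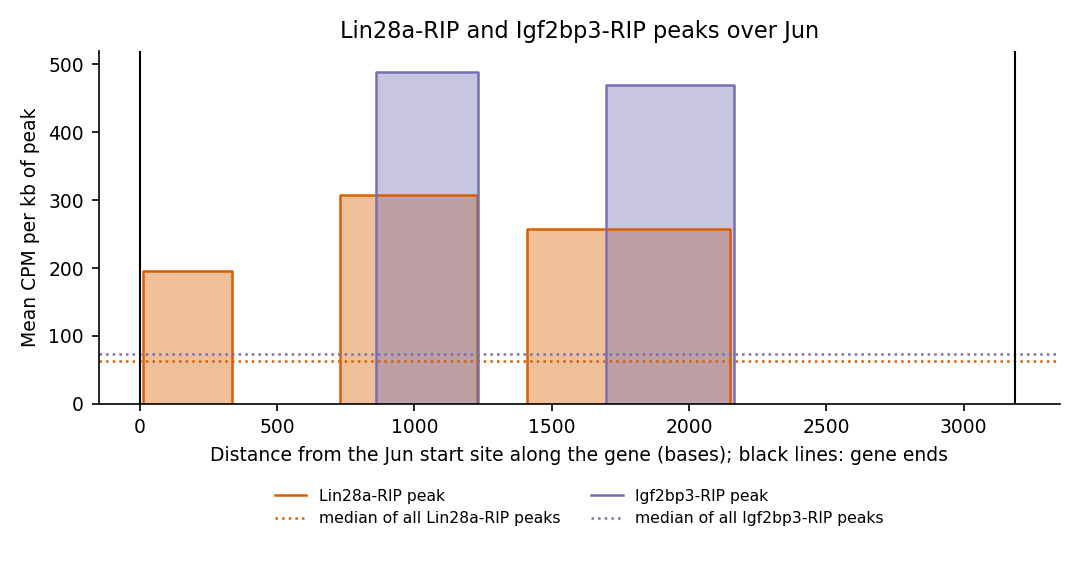
Lin28a-RIP (orange) and Igf2bp3-RIP (violet) peaks over Jun by their distance from the start site in bases, with the height as mean CPM per kb of peak over the libraries of the assay and dotted lines at the median of all peaks of that assay (63.2 and 73.1). The 2 Igf2bp3-RIP peaks lie over the second and the third Lin28a-RIP peak, and the Lin28a-RIP peak nearest the start site stands alone.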

How the data were processed

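Per the labels and the methods, RNA of control and Lin28a+ MuSCs was sequenced as input, m6A-RIP, Igf2bp3-RIP and Lin28a-RIP in 14 libraries. The submitters' processing notes name FastQC, HISAT2 2.0.4, MACS2 1.4.3 and DESeq2 1.42.0, and both a human and a mouse genome build. All member peaks but 1 lie within the GRCm38.p6 span of their gene, so positions are given as mouse coordinates of that build. The counting program, its strand setting and the peak threshold are not given in the sources used here. Without strand, a gene and an antisense partner cannot be told apart. The authors deposited estimated counts per gene for the input, rounded here before tests, and whole-number counts per peak for the RIP libraries, unscaled. Both Lin28a+ m6A-RIP columns carry 1 name and have no replicate number here.

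Tests used edgeR 4.0.16 in R 4.3.3 (quasi-likelihood, TMM, filterByExpr, Benjamini-Hochberg adjusted p under 0.05 over all features), and relative to input as the interaction of cells and assay. They were tested on simulated data, where far fewer of the changed features were called in Igf2bp3-RIP than in RNA or m6A-RIP. CPM are TMM-scaled unless they are per kb of peak, over input or of Lin28a-RIP, which used table totals, with a pseudocount of 1 CPM over input. The members and lists were chosen with earlier results of these data known. All members are named, and of each list at most the 2 higher and 2 lower genes with the smallest p among called genes without overlap between groups; 1 gene this rule names is not reported here. The alternatives tried were DESeq2 (also its size factors in edgeR), total counts, no filter or at least 10 counts in every library, each library left out, a replicate block where columns carry numbers, a pseudocount of 0.1 CPM and a peak overlap of 50%. Counting intervals are exact (95%) and cover counting error only.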

Additional observations from a re-analysis of the deposited data

How the results depend on the processing

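The count of the 10 genes called in RNA was 7 with edgeR, 5 with DESeq2, and 6 to 8 with a library left out. DESeq2 called 3039 genes in RNA (edgeR: 6432), 45 genes of the related lists (85), 337 in m6A-RIP relative to input (569), 115 genes and 263 peaks in Igf2bp3-RIP (13 and 24) and 66 relative to input (41), among them 1 member. With a library left out, calls relative to input for m6A numbered 1 to 2 members and 300 to 620 genes, and for Igf2bp3 0 to 1 members and 0 to 570 genes (490 genes or more had an unadjusted p under 0.05), while Igf2bp3-RIP gave 39 to 76 genes and 108 to 193 peaks. Asking for at least 10 counts in every library left 0 members called for m6A relative to input, since Fos and Klf2 were no longer tested, and 0 Igf2bp3-RIP peaks (973 at an unadjusted p under 0.05). Total counts gave 7 Igf2bp3-RIP genes and moved the median of all m6A-RIP rows from 0.002 to -0.15; Ier2 then turned to -0.033 per gene and -0.032 per row, and 1 row of Junb lost its call. These alternatives over all features, lists and RIP values were chosen after seeing the data, and the cause of these moves was not tested.

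The replicate numbers could serve as a block in Igf2bp3-RIP alone, since the Lin28a+ columns of the input and m6A-RIP tables could not be tied to a replicate number. Differences between its replicates correlated between the groups (r = 0.703 over 19465 peaks), the labels do not say what a number marks, and the samples share only a number. With the replicate block, 370 genes and 1988 peaks were called, with 0 members per gene and 1 member peak, that of Myc (-0.69, adjusted p = 0.0114).

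Of single log2 fold changes without a call, these turned sign with a library left out: m6A-RIP of Ier2 (-0.02 to 0.172) and of 1 small Jun row (-0.017 to 0.862, called at the latter), m6A relative to input of Klf4 (-0.412 to 0.226), Klf6 (-0.149 to 0.027) and Myc (-0.033 to 0.191), and Igf2bp3-RIP of Egr1 (-0.995 to 0.457), Jun (-0.977 to 0.094), Klf4 (-0.529 to 0.04) and Klf6 (-0.324 to 0.564). Of 601 member values recomputed, 567 kept direction and side of the threshold. The level of Jun in Lin28a-RIP over input stayed at -1.02 with a pseudocount of 0.1 CPM in place of 1 CPM, while levels in Lin28a+ MuSCs moved from 4.42 to 5.38 (Klf2) and from 2.62 to 3.28 (Fos) in m6A-RIP and from 2.46 to 3.31 (Klf2) in Igf2bp3-RIP. Depth limits Fos and Klf2, with 12 and 8 estimated counts in Lin28a+ input, and the spread between replicates limits Igf2bp3-RIP.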

Other observations

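The Dusp phosphatases, which switch off the kinases that induce immediate early genes, were part of the list of other immediate early genes and were singled out after their values were seen. Besides Dusp4, RNA of Dusp2 (log2 fold change -3.95, adjusted p = 0.000128), Dusp6 (-2.54, adjusted p = 5.76e-05) and Dusp5 (-0.45, adjusted p = 0.00586) was lower in Lin28a+ MuSCs, and Dusp1 did not pass (0.00, adjusted p = 0.995). Several other early genes did not pass either, among them Nr4a1 (-0.16, adjusted p = 0.723), Btg2 (-0.12, adjusted p = 0.252) and Ier3 (0.08, adjusted p = 0.655).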
